A study of Mus musculus with 4 samples.

Results

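The genes of the muscle acetylcholine receptor and the neuromuscular junction described here, measured on 4 microarrays, are 10: Chrna1, Chrnb1, Chrnd, Chrne and Chrng (the receptor subunits), Lrp4, Musk and Dok7 (the receptor complex for nerve-derived agrin), Rapsn (the receptor's clustering protein) and Ache (acetylcholinesterase). They were taken by name, as every probe set that the platform annotation assigns to one of these genes alone, which gave 13 probe sets for 10 of 18193 genes. RNA came from the tibialis anterior, a fast-fibre muscle at the front of the shin, of C57BL/6J mice: mdx/MMP-2-/- (here mdx/MMP-2 null) at 3 months, mdx/MMP-2 null at 1 month, mdx at 3 months and mdx at 1 month. Every group therefore carried mdx, the loss of dystrophin that models Duchenne muscular dystrophy, and the mdx/MMP-2 null groups also lacked matrix metalloproteinase 2. There was 1 array per group and no wild-type muscle, and the labels do not say whether animals were pooled, so no difference between a pair of arrays has a replicate check, and the words higher and lower are said of single arrays.

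The neuromuscular junction is the synapse at which a motor nerve terminal releases acetylcholine onto a muscle fibre. Agrin from the nerve binds Lrp4, which activates the kinase MuSK with the help of Dok-7, and rapsyn then anchors receptors beneath the terminal. Fetal, denervated and regenerating fibres make a receptor with the gamma subunit along the whole fibre, whereas adult innervated fibres replace gamma by epsilon and make receptor almost only at the synapse. Myogenic factors such as MyoD and myogenin bind E-boxes (letters CANNTG) in receptor promoters, and the factor GABP binds an N-box (core CCGGAA) that directs transcription to nuclei under the synapse.

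The promoters of 4 genes are shown first, because between the ages Chrng and Chrna1 lay lower and Chrne and Musk higher in 3-month than in 1-month mdx muscle. Each is the RefSeq window of 250 bases before to 50 after the annotated start in GRCm38.p6, on the gene's strand and 5′ to 3′. Windows were found for 7 of the 10 genes, with 2 starts for Dok7. Capitals mark the E-box form CAGCTG and the N-box core CCGGAA, searched on both strands, and these 2 motifs overlap nowhere here. The windows are chr1:87205561-87205860 (plus strand) for Chrng, chr2:73580289-73580588 (minus) for Chrna1, chr11:70619145-70619444 (minus) for Chrne and chr4:58285712-58286011 (plus) for Musk.
Chrng: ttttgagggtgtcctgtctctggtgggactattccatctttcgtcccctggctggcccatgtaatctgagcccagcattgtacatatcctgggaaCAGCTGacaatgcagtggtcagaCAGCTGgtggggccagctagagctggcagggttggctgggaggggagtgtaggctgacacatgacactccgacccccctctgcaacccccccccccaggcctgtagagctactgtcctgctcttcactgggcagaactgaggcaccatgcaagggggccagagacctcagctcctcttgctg
Chrna1: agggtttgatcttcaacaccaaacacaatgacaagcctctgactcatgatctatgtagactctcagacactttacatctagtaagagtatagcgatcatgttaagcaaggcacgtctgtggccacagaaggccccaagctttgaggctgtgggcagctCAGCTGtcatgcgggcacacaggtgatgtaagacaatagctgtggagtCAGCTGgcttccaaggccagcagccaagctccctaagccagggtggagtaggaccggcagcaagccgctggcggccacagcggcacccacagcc
Chrne: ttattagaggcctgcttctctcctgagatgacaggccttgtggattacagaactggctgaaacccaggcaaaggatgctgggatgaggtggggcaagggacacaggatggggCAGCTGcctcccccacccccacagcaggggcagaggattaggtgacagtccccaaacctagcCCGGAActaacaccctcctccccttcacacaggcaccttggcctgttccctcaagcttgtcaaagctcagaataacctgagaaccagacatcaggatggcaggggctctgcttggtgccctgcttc
Musk: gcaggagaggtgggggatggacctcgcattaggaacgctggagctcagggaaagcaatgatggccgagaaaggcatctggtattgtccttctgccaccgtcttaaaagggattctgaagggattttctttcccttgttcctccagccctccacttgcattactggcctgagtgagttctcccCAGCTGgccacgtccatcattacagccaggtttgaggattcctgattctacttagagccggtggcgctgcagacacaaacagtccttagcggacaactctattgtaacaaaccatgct

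CAGCTG was found in 4 of the 8 windows, those of Chrng (at -155 and -132 from the start), Chrna1 (-92 and -44), Chrne (-138) and Musk (-68), and in 16.3% of all 32851 windows of the same length. The wider form CANNTG, of which CAGCTG is one case, was in 7 of the 8 and in 72.3% of all. The N-box core was in 1 of the 8, at -76 in Chrne, and in 14.9% of all windows. CAGCTG was thus in the windows of Chrng and Chrna1, lower at 3 months in mdx, and of Chrne and Musk, higher there. Chrnb1 and Ache also lay lower there (log2 differences of -0.21 and -0.25), and their windows held no CAGCTG. Neither window of Dok7 held it. These matches are letters in a window and show no binding.

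**Figure D1:**
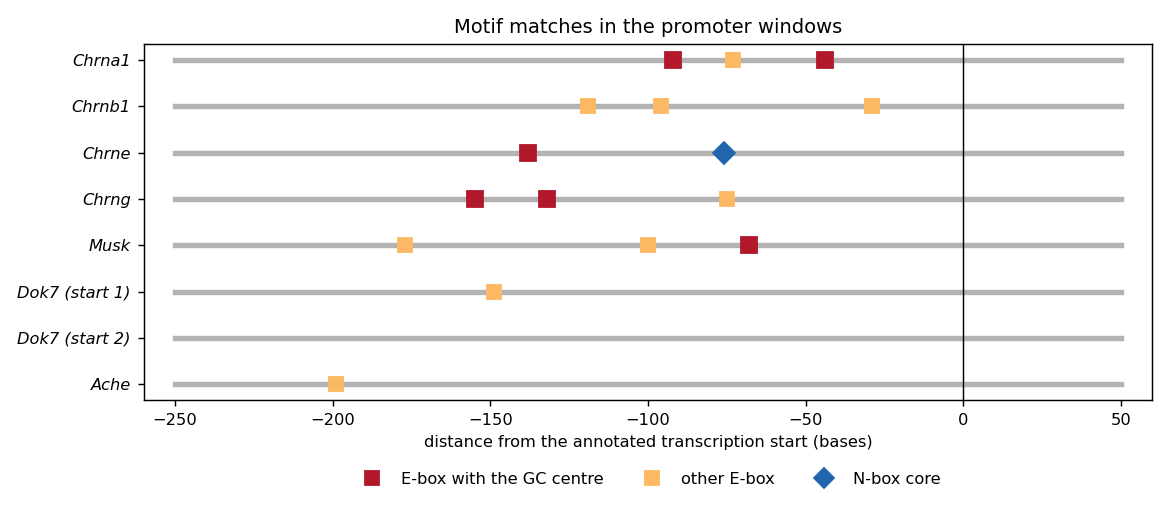
Motif matches in the 8 promoter windows, by distance in bases from the annotated transcription start (0). Red squares are CAGCTG E-boxes, orange squares other E-boxes and the blue diamond the N-box core, which lies in Chrne, while Chrng and Chrna1 hold a pair of red squares each.

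Signals are MAS5 intensities after quantile scaling, on a linear scale, and compare arrays for 1 probe set, not genes with each other. A floor was set at 17.4 (the 50th percentile over non-control probe sets), and lower signals were raised to it. The deposited signals had 2% trimmed means of 90.3 to 122. The genotype labels held for Mmp2, with 40.9 at 3 months and 24.7 at 1 month in mdx/MMP-2 null, against 805 and 986 in mdx. All 10 markers of mature fast fibres were measured, with summed signals of 131000 to 132800, so the tissue carried its defining genes. As measures of RNA integrity, the Actb 3′ signal over its 5′ signal was 2.09 at 3 months and 1.05 at 1 month in mdx/MMP-2 null, against 2.36 and 1.19 in mdx, and the same ratio for Gapdh was 0.935 and 0.850, against 0.936 and 0.883.

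No member differed by 2-fold in any of the 4 comparisons. Among all 12802 genes above the floor on at least 1 array, 1.6% did so for mdx/MMP-2 null over mdx at 3 months, 1.15% for the same at 1 month, 2.69% for 3 months over 1 month in mdx/MMP-2 null and 2.52% for 3 months over 1 month in mdx. At 1.5-fold, Chrng and Chrna1, 2 of the 10 members, were lower at 3 months in mdx, where 13.2% of all genes passed in either direction and 7.27% were lower. In the other comparisons 0 of 10 members passed 1.5-fold, beside 14.1% of all genes for age in mdx/MMP-2 null, 9.42% for genotype at 3 months and 7.08% for genotype at 1 month. The member medians on the log2 scale were -0.13 for age in mdx/MMP-2 null, -0.23 for age in mdx, -0.05 for genotype at 3 months and -0.02 for genotype at 1 month, where the medians of all genes were 0. The age median in mdx/MMP-2 null was 0.05 with median scaling and 0.14 with no scaling, where the medians of all genes were 0.19 and 0.26, so that the members lay below all genes by 0.14 and 0.12, much as with quantile scaling. All 10 genes are counted in these medians, but Chrnd passed the floor on 1 array only.

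**Figure D2:**
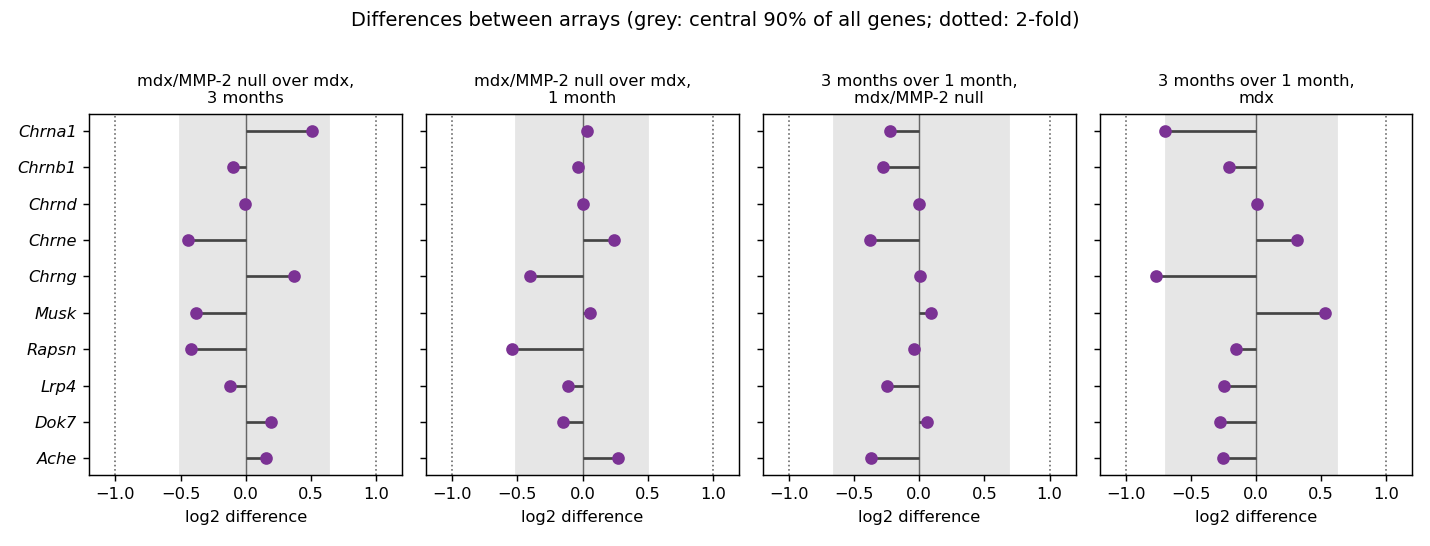
Log2 differences of the 10 genes in the 4 comparisons, with 3 months before 1 month and mdx/MMP-2 null before mdx. Grey bands span the central 90% of all genes and dotted lines mark 2-fold, which none of the 10 reaches. Chrnd lies near 0 because its signals were raised to the floor. Chrna1 and Chrng lie furthest left in the panel for age in mdx.

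The additive limma fit of genotype and age over the 4 arrays was the only test available. It has 1 residual degree of freedom per gene, and it tests an effect averaged over the other factor, with the difference between the ages' genotype effects standing in for the spread between samples. With Benjamini-Hochberg adjustment over all 12802 genes it called 0 members and 0% of all genes for age, and 0 members and 0% for genotype. At an unadjusted p under 0.05 it passed 0 members for age, beside 13.8% of all genes, and 1 member for genotype, Rapsn, beside 4.39% of all genes. The members' adjusted p ran from 0.381 to 0.996 for age and from 0.982 to 0.999 for genotype.

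Chrna1 encodes the alpha subunit that binds acetylcholine. Its signal was 442 at 3 months and 515 at 1 month in mdx/MMP-2 null, against 311 and 505 in mdx. The 3-month mdx array was thus the low one of the 4. At 3 months Chrna1 was lower than at 1 month by 1.17-fold in mdx/MMP-2 null and by 1.62-fold in mdx. The mdx/MMP-2 null log2 difference was 0.08 with median scaling and 0.14 with no scaling, still below the medians of all genes under those settings (0.19 and 0.26). Between genotypes at 3 months it was 1.42-fold higher in mdx/MMP-2 null than in mdx, and under the 8 other settings the log2 value ranged from 0.50 to 0.96. The additive fit gave an age effect of -0.46 ± 0.19 (log2, SE, adjusted p = 0.381). In bulk muscle, fewer fibres that express a gene and less RNA per fibre cannot be told apart.

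Chrng encodes gamma, the fetal subunit. Its main probe set read 56.2 at 3 months and 56.1 at 1 month in mdx/MMP-2 null, against 43.6 and 74.3 in mdx. The mdx arrays held both the highest and the lowest value, and the mdx/MMP-2 null arrays lay between them. In mdx/MMP-2 null the log2 age difference was 0.00. In mdx Chrng was 1.70-fold lower at 3 months, where the log2 difference of -0.77 ranged from -0.93 to -0.29 under the other settings, the smallest being the mean of its 3 probe sets. Of the other probe sets of Chrng, 1 was above the floor on the 1-month mdx array only (18.6) and 1 on no array. The additive age effect was -0.38 ± 0.23 (log2, SE, adjusted p = 0.521).

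Chrne encodes epsilon, the adult subunit. Its signal was 42.1 at 3 months and 54.6 at 1 month in mdx/MMP-2 null, against 57.4 and 46.1 in mdx. The older mdx array was highest and the older mdx/MMP-2 null array lowest. With age Chrne was 1.30-fold lower in mdx/MMP-2 null and 1.24-fold higher in mdx, and both directions held under all 8 other settings. At 3 months it was 1.36-fold lower in mdx/MMP-2 null than in mdx, but with no scaling the log2 difference was 0.02, while that of the median gene was 0.41. Set against each other, the age difference of Chrng minus that of Chrne was 0.38 on the log2 scale for mdx/MMP-2 null and -1.09 for mdx. The corresponding genotype values were 0.81 at 3 months and -0.65 at 1 month. None of these was tested.

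Chrnb1, the beta subunit shared by fetal and adult receptor, had signals of 352 at 3 months and 427 at 1 month in mdx/MMP-2 null, against 378 and 436 in mdx. It was lower at 3 months in both genotypes, by 1.21-fold in mdx/MMP-2 null and by a log2 difference of -0.21 in mdx. With median scaling and with no scaling the mdx/MMP-2 null value was 0.02 and 0.08, again below the medians of all genes (0.19 and 0.26). Chrnd, the delta subunit and the next protein-coding gene to Chrng on chromosome 1, gave 15.3 and 11.2 in mdx/MMP-2 null at 3 and 1 months, against 17.5 and 4.88 in mdx. Only the 3-month mdx value passed the floor, so no fold is given for Chrnd.

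**Figure D3:**
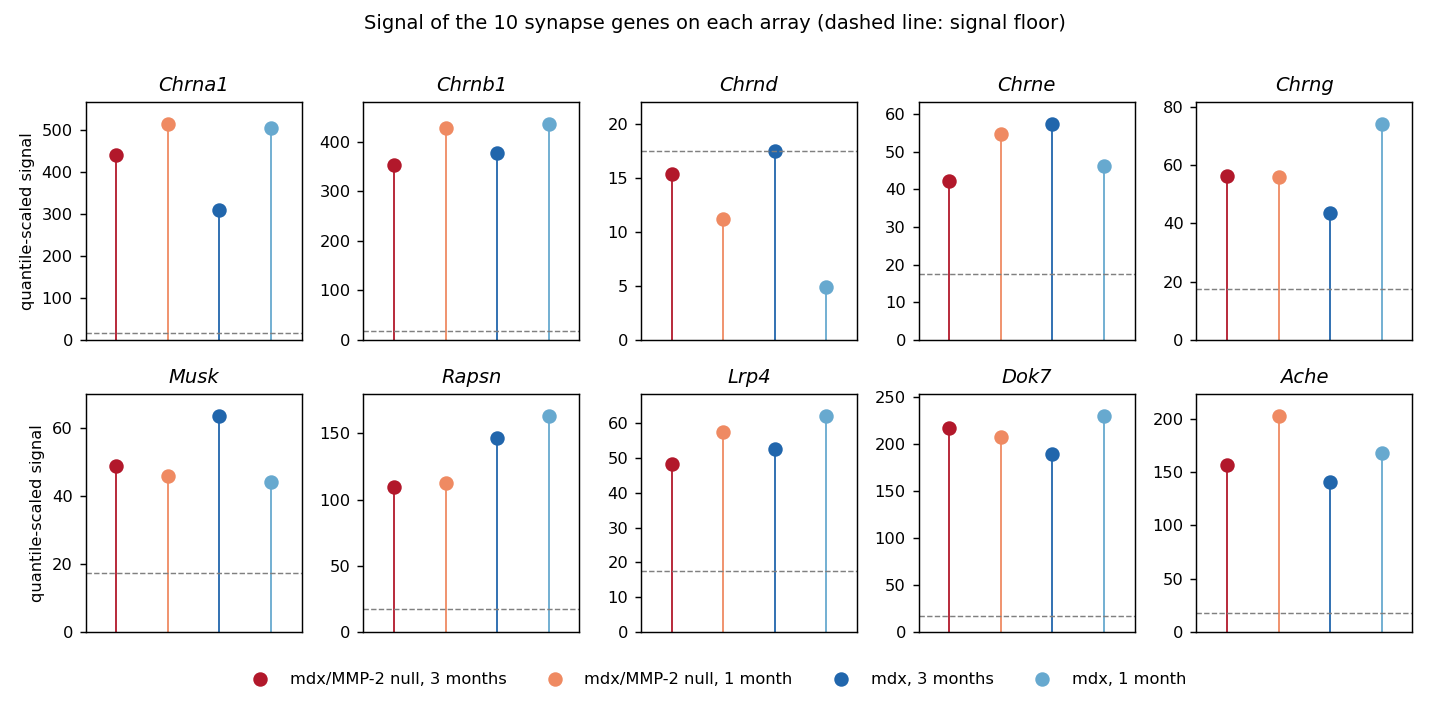
Quantile-scaled signal of the 10 genes on each array, 1 point per array, on linear axes that start at 0 and differ between genes. The dashed line is the floor of 17.4. Chrna1 and Chrng are lowest in mdx at 3 months (311 and 43.6), Musk is highest there (63.7), and both Rapsn values of mdx/MMP-2 null lie under both of mdx.

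In the agrin receptor complex, Musk, the kinase that starts clustering, had signals of 48.8 at 3 months and 45.9 at 1 month in mdx/MMP-2 null, against 63.7 and 44.1 in mdx. The 3-month mdx array stood above the other 3, which lay close together. Between ages, Musk was higher at 3 months by 1.06-fold in mdx/MMP-2 null and by 1.44-fold in mdx, where the log2 difference was 0.39 to 0.53 under the other settings. At 3 months it was 1.30-fold lower in mdx/MMP-2 null than in mdx, and with no scaling its log2 difference of 0.08 lay below the 0.41 of the median gene. The additive age effect was 0.31 ± 0.18 (log2, SE, adjusted p = 0.51).

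Lrp4, the agrin receptor, had signals of 48.4 at 3 months and 57.5 at 1 month in mdx/MMP-2 null, against 52.5 and 62.2 in mdx. The age difference was nearly the same in both genotypes, 1.19-fold lower at 3 months in mdx/MMP-2 null and 1.18-fold lower in mdx, and its direction held under all 8 other settings. Dok7, the adaptor that activates MuSK from inside the fibre, had a main probe set at 217 and 207 in mdx/MMP-2 null at 3 and 1 months, against 189 and 230 in mdx. Its other probe set read 29.6 and 32.2, against 39.5 and 28.1, and lay the opposite way in all 4 comparisons. No direction is therefore given for Dok7.

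Rapsn, which links receptors to the cytoskeleton, lay lower in mdx/MMP-2 null than in mdx at both ages. Its signal was 109 at 3 months and 112 at 1 month in mdx/MMP-2 null, against 146 and 163 in mdx. Both mdx/MMP-2 null values lay under both mdx values. Between genotypes, Rapsn was lower in mdx/MMP-2 null by 1.34-fold at 3 months and by 1.45-fold at 1 month. The 1-month direction held under all 8 other settings, and at 3 months the log2 difference with no scaling, 0.04, lay below the 0.41 of the median gene. The additive genotype effect was -0.48 ± 0.15 (log2, SE), with an unadjusted p of 0.0291 and an adjusted p of 0.982 in limma.

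Ache, the enzyme that ends transmission by splitting acetylcholine, had signals of 156 at 3 months and 203 at 1 month in mdx/MMP-2 null, against 141 and 168 in mdx. Both older arrays lay under both younger ones. At 3 months it was lower by 1.30-fold in mdx/MMP-2 null and by 1.19-fold in mdx. Between genotypes it was 1.11-fold higher in mdx/MMP-2 null at 3 months and 1.21-fold higher at 1 month. All 4 directions held under the 8 other settings, and the additive age effect was -0.31 ± 0.15 (log2, SE, adjusted p = 0.445).

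Of 15 listed signals and basal lamina proteins of the synapse, 13 were above the floor, and at 3 months 9 of 13 were lower in each genotype, with log2 medians of -0.27 for mdx/MMP-2 null and -0.47 for mdx. Agrn, which encodes agrin but is made by muscle and other cells as well as nerve, was the 1 gene of this list past 2-fold. Its signal was 67.7 at 3 months and 153 at 1 month in mdx/MMP-2 null, against 58.8 and 183 in mdx, so that both older arrays lay under both younger ones. At 3 months it was lower by 2.26-fold in mdx/MMP-2 null and by 3.11-fold in mdx, with an additive age effect of -1.41 ± 0.18 (log2, SE, adjusted p = 0.287). Nid2, Lama4 and Lamb2, proteins of basement membrane, had log2 age differences of -0.70 to -0.45 in mdx/MMP-2 null and of -0.87 to -0.59 in mdx. Erbb3, a neuregulin receptor, had log2 age differences of -0.27 for mdx/MMP-2 null and -0.26 for mdx, and Colq, the collagen tail of acetylcholinesterase, passed the floor on 1 array. By genotype no gene of the list passed 2-fold.

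Of 22 postsynaptic scaffold and kinase genes, 20 were measured, with log2 age medians of -0.08 for mdx/MMP-2 null and -0.15 for mdx, and genotype medians of 0.02 at 3 months and 0.00 at 1 month. Past 2-fold, 1 gene of the 20 was lower with age in mdx/MMP-2 null (Crkl), 1 other in mdx and 1 between genotypes at 1 month. Dag1, which encodes dystroglycan, and Camk2b, a calcium-dependent kinase, were lower at 3 months by 1.64-fold and 1.54-fold in mdx/MMP-2 null and by 1.40-fold and 1.49-fold in mdx. The 3 other probe sets of Dag1 gave log2 age differences of -0.82 to -0.61 in mdx/MMP-2 null and of -0.76 to -0.12 in mdx. Utrn, utrophin, a relative of dystrophin held at the synapse, had signals of 171 and 216 in mdx/MMP-2 null at 3 and 1 months, against 202 and 217 in mdx. Crkl, an adaptor that binds Dok-7, was lower at 3 months by 2.14-fold in mdx/MMP-2 null and by 1.08-fold in mdx, although another of its probe sets gave 25.5 at 3 months and 25.0 at 1 month in mdx/MMP-2 null.

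Of 17 transcription factors and co-repressors that act on receptor genes, 16 were measured. Myog, myogenin, had signals of 394 at 3 months and 684 at 1 month in mdx/MMP-2 null, against 318 and 654 in mdx. Both older arrays lay under both younger ones, by 1.74-fold in mdx/MMP-2 null and 2.06-fold in mdx, with an additive age effect of -0.92 ± 0.16 (log2, SE, adjusted p = 0.287). Etv5, an ETS factor expressed under the synapse, was 1.54-fold lower with age in mdx/MMP-2 null and 2.54-fold lower in mdx, where another probe set gave a log2 difference of 0.01. Hdac9, whose product represses receptor genes in innervated muscle, was 2.33-fold higher at 3 months in mdx/MMP-2 null (97.4 against 41.9), with a log2 difference of 0.26 in mdx (74.0 against 61.9).

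Of 12 genes known to be induced by denervation, 10 were measured. Between ages, 8 of them were higher at 3 months in the mdx/MMP-2 null pair of arrays and 5 in the mdx pair, with log2 age medians of 0.25 for mdx/MMP-2 null and 0.01 for mdx and genotype medians of 0.29 at 3 months and 0.06 at 1 month. Gadd45a, a stress-induced gene, was 1.97-fold higher in mdx/MMP-2 null than in mdx at 3 months (897 against 455), while Fbxo32, a ubiquitin ligase of atrophy, was 1.77-fold lower (571 against 1010), and its other probe sets gave log2 differences of -0.40 and 0.03. Ncam1, an adhesion molecule spread over denervated fibres, was 1.18-fold higher at 3 months in mdx/MMP-2 null and 1.68-fold lower in mdx, but 2 further probe sets above the floor on all arrays were lower with age in both genotypes. Of 10 annotated nicotinic subunits outside muscle receptor, 3 passed the floor on at least 1 array, and each of these was under it on at least 1. None of 5 glycosylation enzymes whose loss causes myasthenia in human passed 2-fold in any comparison. Nor did any of 7 measured nerve terminal genes, but 5 of these were under the floor on at least 1 array. Raising signals to the floor limits the folds that such genes can show, so little can be read from this.

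Markers of other cells and states differed with age beside these genes. Regenerating-fibre markers were lower at 3 months in 7 of 8 cases in mdx/MMP-2 null (median -0.67, 2 past 2-fold) and in 8 of 8 in mdx (median -1.14, 5 past 2-fold). Between genotypes, 5 of the 8 were higher and 3 lower in mdx/MMP-2 null at 3 months (log2 median 0.26). At 1 month 3 were higher and 5 lower (log2 median -0.16). The summed signals of the 8 were 10650 at 3 months and 17600 at 1 month in mdx/MMP-2 null, against 11090 and 17640 in mdx. Markers of high signal weigh most in such sums. Among the 8 markers Myh3, embryonic myosin, was 1.47-fold lower at 3 months in mdx/MMP-2 null and 3.42-fold lower in mdx. Myh8, perinatal myosin, was lower by 2.82-fold in mdx/MMP-2 null and by 2.55-fold in mdx. Mymk, needed for myoblast fusion, was lower by 2.06-fold in mdx/MMP-2 null and by 2.36-fold in mdx, and Tnnt2, a troponin of immature muscle, was lower by 1.49-fold in mdx/MMP-2 null and by 2.85-fold in mdx.

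Summed Schwann cell markers (8 measured, 2 of them under the floor on at least 1 array) read 1358 and 2323 in mdx/MMP-2 null at 3 and 1 months, against 1184 and 1769 in mdx. Summed macrophage markers (10 measured) read 9928 and 8930, against 6695 and 9492. Satellite cell markers (6 measured) summed to 551 and 632, against 488 and 731. Neutrophil markers (4 measured) summed to 656 and 181, against 83.3 and 154. Endothelial markers (6 measured) summed to 910 and 1617, against 961 and 1434, fibroblast markers (7 measured) to 33310 and 38600, against 31440 and 39660, and slow fibre markers (6 measured) to 4707 and 3613, against 3062 and 3180. In each of these sums the 3-month array of a genotype is given before its 1-month array. The 3-month mdx array, which had the lowest Chrna1 and Chrng, also had the lowest Schwann, macrophage, satellite cell, neutrophil, fibroblast and slow fibre sums. For slow fibre the sum hides a split, since 4 of the 6 markers were higher and 2 lower at 3 months in mdx (log2 median 0.29). Schwann markers were split too, with 6 of 8 lower and 2 higher at 3 months in mdx/MMP-2 null. In mdx 5 were lower and 3 higher. Mbp and Pmp22 made up most of the Schwann sums. Mbp read 310 and 785 in mdx/MMP-2 null, against 296 and 527 in mdx. Pmp22 read 884 and 1364, against 722 and 1074. The part of these cells, and of the Actb and Gapdh ratios, in the differences of the 10 genes was not tested.

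**Figure D4:**
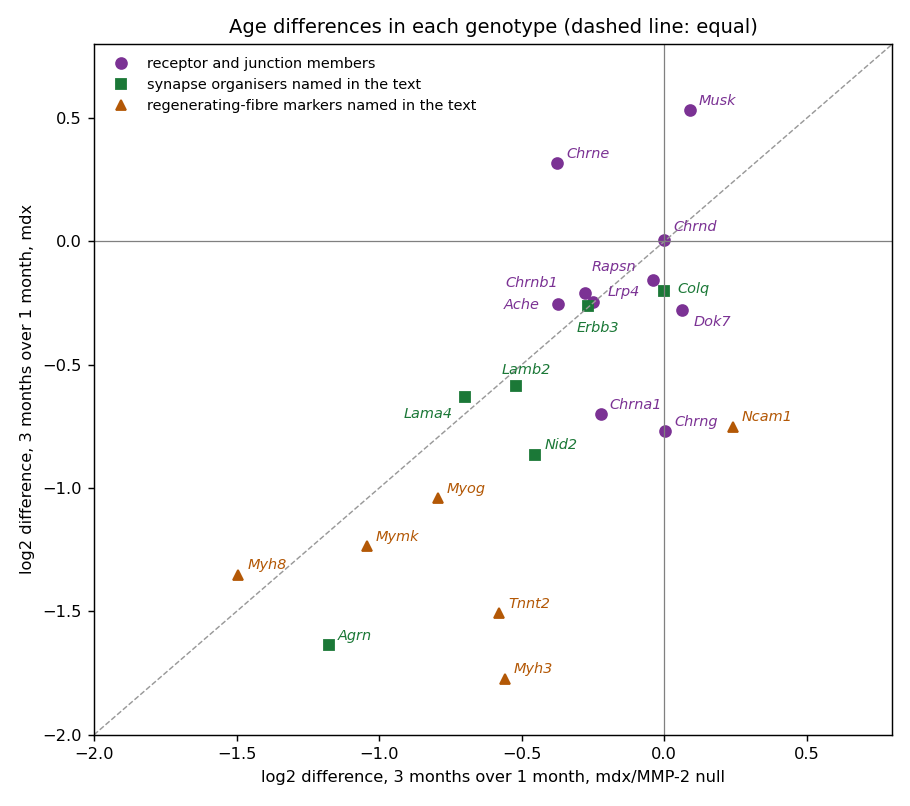
Log2 difference of 3 months over 1 month in mdx/MMP-2 null (horizontal) and in mdx (vertical) for the 10 genes (purple circles), named synapse organisers (green squares) and named regenerating-fibre markers (orange triangles). The dashed line marks equal differences. Agrn, Myog and Myh8 lie below -0.70 on both axes. Chrna1 and Chrng lie at -0.70 and -0.77 in mdx. In mdx/MMP-2 null Chrna1 lies at -0.22 and Chrng at 0.00.

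The genes most like Chrna1, the member with the highest mean signal, and like Chrng, the one with the widest range, were sought among 7745 other genes by Euclidean distance between log2 profiles centred on each gene. With 4 arrays this likeness is weak, and 12 genes lay within 0.1 of Chrna1 and 6 within 0.1 of Chrng. Nearest to Chrna1 were Ptms (distance 0.03), Rgma, Bex3, Aif1l and Vars (up to 0.08). Nearest to Chrng were Gja1, which encodes the gap junction protein connexin 43 (0.04), Fcrls, Arhgap35, Ccnd2, a cyclin, and Dnajc11 (up to 0.09). Gja1 read 848 at 3 months and 868 at 1 month in mdx/MMP-2 null, against 660 and 1158 in mdx, with the mdx arrays at both extremes, as for Chrng.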

How the data were processed

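Total RNA of tibialis anterior was measured on 4 Affymetrix mouse arrays, 1 per group, with groups taken from the labels. The authors deposited 1 linear intensity per probe set and array, and the submitters' processing notes name MAS5 and Affymetrix Expression Console. Software versions and the scaling target are not given in the sources used here, and detection calls were not used. The columns were not on a common scale, so arrays were quantile normalized in limma 3.58.1 (R 4.3.3). Of 45037 non-control probe sets, 34945 carried 1 gene symbol, 932 several and 9160 none; of the first kind, 34741 were found by gene ID in the RefSeq gene table, with 0 symbols changed. Signals under 17.4 were raised to it, log2 was taken, each gene was represented by its probe set of highest mean, and genes above the floor on at least 1 array (12802) were kept. The additive fit used lmFit and eBayes and was also run on simulated data with noise of the same spread for every gene. That simulation does not show how the fit performs on these arrays. The p-values of the fit rest on 1 array per group, so the number of arrays limits the precision.

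Named genes outside the 10 were up to 4 per list with the largest difference and a signal of at least 85.4 on some array, with Agrn, Colq, Erbb3, Utrn, Myog and Ncam1 always named; likeness was scored for the member with the highest mean signal and the one with the widest range, over genes with such a signal. Members and lists were chosen with earlier results of these data known. Genes in more than 1 list, such as Myog, were counted in each. Other settings were the scaling (median, cyclic loess or none), the floor (40th or 60th percentile, or a pseudocount of 4.36 in its place), the probe sets (their mean, or without _x_at and _s_at sets), the threshold (1.5-fold), a signal-dependent variance prior and unadjusted p. Promoters were scanned in Python 3.11.15 with pandas 2.3.3.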

Additional observations from a re-analysis of the deposited data

Results flagged for a closer look

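Chrng and Chrne are listed because their differences had opposite directions in the pairs of arrays compared. Each value rests on single arrays, and the change of direction was not tested. The genotype difference of Chrng had opposite signs at the ages, each past 1.2-fold: the log2 difference of mdx/MMP-2 null over mdx was 0.37 at 3 months and -0.40 at 1 month. The same held for 6.91% of all genes. The age difference of Chrne differed in sign between genotypes, each past 1.2-fold: the log2 difference of 3 months over 1 month was -0.37 for mdx/MMP-2 null and 0.32 for mdx, as in 5.98% of all genes. The genotype difference at 3 months minus that at 1 month was 0.77 for Chrng, and 9.68% of all genes lay at least as far from 0. It was -0.69 for Chrne, with 12.6% of genes at least as far.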

How the results depend on the processing

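Under the alternatives, 85 values of the member medians, the counts past 2-fold and the additive calls stayed within 0.1 (medians) or equal (counts), and 7 did not. These were 3 counts and the following medians. The median for genotype at 1 month was -0.13 with median scaling, where the median of all genes was -0.10. The median for genotype at 3 months was 0.36 with no scaling (all genes 0.41). The median for age in mdx/MMP-2 null was 0.05 with median scaling (all genes 0.19) and 0.14 with no scaling (all genes 0.26). For age in mdx, 1 member passed 2-fold with a pseudocount in place of the floor, Chrnd, whose signals lay under the floor on 3 arrays, and 2 passed at a 1.5-fold threshold. In the additive fit 1 member passed at unadjusted p for genotype. The median over members above the floor on all 4 arrays, chosen after seeing the data, stayed within 0.1 of the value over all 10. For age in mdx/MMP-2 null it was -0.22, against -0.13 over all 10, and for genotype at 3 months -0.10, against -0.05. For age in mdx it was -0.24, against -0.23. At 1.5-fold, 1 to 3 members passed for age in mdx under the 8 settings of scaling, floor and probe set. For genotype, 4 passed at 3 months with no scaling, and 1 at 1 month with median scaling or the pseudocount. The shares of all genes under these settings are not given, so these counts are not read as a result about the members. With no scaling the median gene lay at 0.41 for genotype at 3 months, where 1.5-fold is 0.585 on the log2 scale. Of the single members' values, 58 moved by more than 0.1 and 250 did not, and the cause was not tested. No paired analysis was possible because each group had 1 array. Differences between single arrays have no error, the additive fit's standard errors rest on 1 residual degree of freedom and a variance prior, and signals near the floor (Chrnd, the lesser probe sets of Chrng) limit what can be read from them.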
